A study of Caenorhabditis elegans with 37 samples.

Results

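The ciliated neuron types ASG, AWA and AWB, chemosensory neurons of the amphid, were set against the neuron types AVE, AVG, DD, VD and PVD, which are known to bear no cilium, in RNA-seq of sorted Caenorhabditis elegans neurons. Types were placed in a class by their cell type label and by what is known of their anatomy, not by a measured value. They took 28 of the 37 libraries of the series: 13 ciliated (4 ASG, 4 AWA and 5 AWB) and 15 non-ciliated (3 AVE, 3 AVG, 3 DD, 4 VD and 2 PVD). AVE and AVG are interneurons, DD and VD are GABAergic motor neurons, and PVD is a branched nociceptor of the body wall. All groups shared the same handling: untreated worms raised on NA22 bacteria, cells taken by fluorescence-activated sorting into Trizol LS, and SoLo Ovation libraries. The sources used here do not give the strain, reporter transgene or stage. Each type has its own run of library numbers, and neuron type and sort cannot be told apart.

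A sensory cilium is built and kept up by intraflagellar transport (IFT): kinesin motors carry trains of IFT-A and IFT-B complexes with their cargo to the tip, and a dynein carries them back. The BBSome, a coat complex, rides on these trains, and transition zone proteins form a gate at the ciliary base. In C. elegans many of the genes are driven by the RFX factor DAF-19 through X-box promoter motifs, and sensory receptors, G proteins and channels of amphid neurons are moved into the cilium. AWA and AWB have elaborate cilia enclosed by the amphid sheath glia, and the cilium of ASG lies in the amphid channel.

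Total counts ran from 251586 to 5415925 per library over the series, with the lowest in AWB and the highest in VD. Levels are given as CPM, counts scaled to a common library size with TMM factors. Of 30631 genes 15181 had enough counts to test. In bulk libraries, fewer cells of a type and less RNA per cell cannot be told apart. AWA 20 and AWB 51 stood apart from the other libraries of their types. Genes of a pan-neuronal list took 0.374% of counts in AWA 20 and 0.190% in AWB 51, against 0.501% to 1.68% in the other 26 libraries. Intestine genes took 1.67% in AWA 20, and body-wall and pharyngeal muscle genes took 3.68% and 0.429% in AWB 51.

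Some markers were particular to a single sorted type, and others were shared between types. The receptor guanylyl cyclase genes gcy-15 and gcy-21 averaged 6789.6 and 8621 CPM in ASG and at most 20.4 and 23.5 CPM in any other type. The diacetyl receptor gene odr-10 and the nuclear receptor gene odr-7 averaged 5722 and 208 CPM in AWA, and the chemoreceptor gene str-1 147 CPM in AWB. In the non-ciliated types, the GABA synthesis gene unc-25 averaged 4516 CPM in DD and 2542 CPM in VD, the glutamate receptor gene glr-1 191 CPM in AVE and 491 CPM in AVG, and the dendrite receptor gene dma-1 1013 CPM in PVD. None of the 3 genes taken as markers of AVG was particular to it. lin-11 averaged 422 CPM in ASG, 227 CPM in AVE and 470.2 CPM in AVG. odr-2 averaged 252 CPM in ASG and 193 CPM in AVG, and flp-34 averaged 78.5 CPM in ASG and 40.5 CPM in AVG. Of the markers of AVE, glr-1 and nmr-1 were higher on average in AVG. The remaining marker, pept-3, stood at 141, 188 and 296 CPM in AVE and at most 37.9 CPM in any library of the other types. F49H12.4, taken as a marker of PVD, averaged 89.4 CPM in ASG and 81.9 CPM in PVD.

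The cilium genes were higher in the ciliated types. Of 76 genes in 7 cilium lists, all of which could be tested, 70 were higher, 0 were lower and 6 did not pass (edgeR; 0 were lower at an unadjusted p under 0.05 or by DESeq2), with a median log2 difference of 3.64. Of all 15181 genes 15.7% were higher and 12.39% were lower, the background for the count of every list. Their median log2 difference was -0.058. DESeq2 size factors moved that median to 0.051 and library totals alone to -0.164, and the share of calls that were higher was 55.9% with TMM, 66.8% and 46.6%. The test was edgeR's quasi-likelihood F-test of the mean of the 3 ciliated types minus the mean of the 5 non-ciliated types, each type weighted equally, with a call at a Benjamini-Hochberg adjusted p under 0.05. It measures types against the spread between libraries of a type, and the labels do not say that these came from separate cultures, so that spread may be technical. With the 8 type means as units (limma), where 1.11% of all genes were higher, 18 of the 76 passed as higher and 0 as lower (0.178% of all genes; 0 of the 76 lower at an unadjusted p under 0.05), and 74 of the 76 had a positive difference. Of the 70 calls, 66 held under each other alternative in which the gene was tested, and klp-11, klp-20, kap-1 and pdl-1 were lost under at least 1.

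The 2 genes that mark ciliated cells, osm-6 and che-13, encode IFT-B subunits. osm-6 stood at 242, 182, 190.4 and 118.98 CPM in ASG, 144, 57.6, 72.3 and 25.8 CPM in AWA and 61.5, 7.19, 14.1, 37.05 and 29.9 CPM in AWB. It stood at 2.16, 1.26 and 3.89 CPM in AVE, 0.880, 0 and 4.80 CPM in AVG, 5.71, 1.502 and 1.53 CPM in DD, 1.65, 2.21, 2.63 and 1.76 CPM in VD and 7.29 and 47.9 CPM in PVD. The ciliated libraries lay above every AVE, AVG, DD and VD library, while both PVD libraries lay within the range of AWB and one of them above AWA 20. The log2 difference was 4.38 ± 0.37, adjusted p = 3.27e-11 by edgeR (SE). The lowest, median and highest levels of che-13 were 5.75, 55.9 and 126 CPM in ciliated libraries, against 0, 2.34 and 28.3 CPM in non-ciliated libraries (3.78 ± 0.31, adjusted p = 1.80e-11, edgeR). The groups overlapped for che-13 in the same place, with 11.5 and 28.3 CPM in PVD and 5.75 CPM in AWB 51. osm-6 overlaps R31.2 on the opposite strand, and the sources used here do not say whether the counting used strand. R31.2 averaged 109.5 CPM over the ciliated and 82.0 CPM over the non-ciliated types, with no call (log2 difference 0.24 ± 0.16, adjusted p = 0.293, edgeR). In all, 26 of the 76 cilium genes overlap another protein-coding gene, and their levels carry the same limit. Among them are daf-10 (1988 counts over the 37 libraries, against 63108 for flp-1) and tmem-107 (925, against 22249 for dnj-12).

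**Figure D1:**
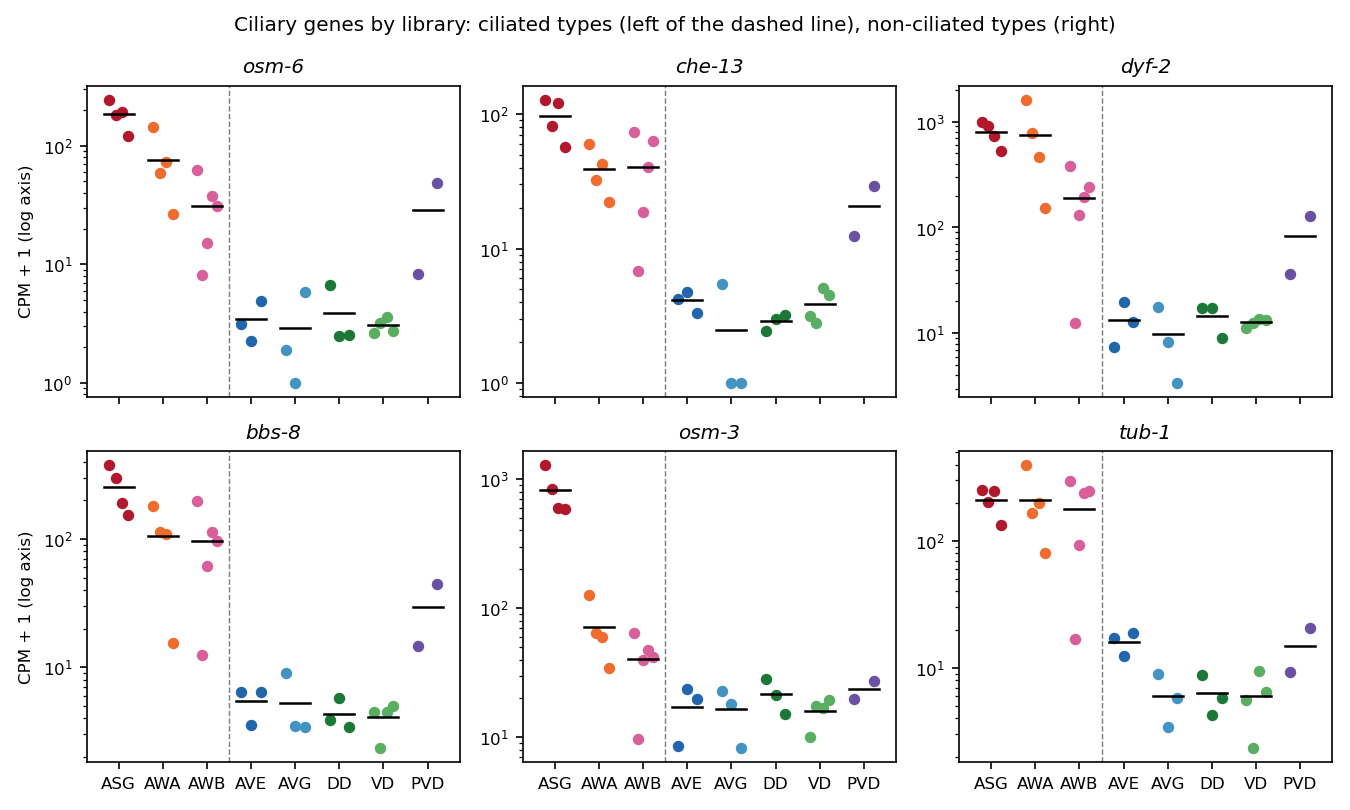
Levels of osm-6, che-13, dyf-2, bbs-8, osm-3 and tub-1 in CPM + 1 (log axis) in each of the 28 libraries, 1 point a library with a black line at the type mean; ciliated types stand left of the dashed line. ASG is highest for osm-6, osm-3 and bbs-8, PVD is the highest non-ciliated type for osm-6, che-13, dyf-2 and bbs-8, and the lowest AWB point is AWB 51 in each panel.

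All 14 IFT-B genes were higher (median log2 difference 4.02). dyf-1, which encodes a subunit needed by the kinesin OSM-3, had 8.63, 138 and 453 CPM in ciliated libraries, against 2.18, 4.44 and 71.8 CPM in non-ciliated libraries as lowest, median and highest (4.43 ± 0.37, adjusted p = 2.40e-11, edgeR). AWA 20 and AWB 52 lay between the PVD libraries, and AWB 51 lay below both of them and below DD 83. ifta-2, an RAB-like GTPase gene, had the largest fitted difference of the list (4.999 ± 0.47), with 152 CPM in ASG, 51.1 CPM in AWA and 27.6 CPM in AWB on average against 0.293 to 22.2 CPM in the non-ciliated types. osm-5, che-2, dyf-3, dyf-6, dyf-13, ift-20, ift-74 and osm-1 had log2 differences from 3.19 (ift-74) to 4.41 (ift-20), and dyf-11 had 2.42 ± 0.39. The smallest was that of ift-81 (1.85 ± 0.28, adjusted p = 2.67e-06, edgeR), which averaged 66.6 ± 40.04 CPM in AVG (SD, n = 3) and at most 20.3 CPM in the other non-ciliated types. ift-81 overlaps ags-3 on the opposite strand, and ags-3, named after its values were seen, averaged 7626 ± 4517 CPM in AVG (SD, n = 3) and 48.8 to 103.4 CPM in AVE, DD, VD and PVD. Their reads cannot be told apart without the strand setting.

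All 6 IFT-A genes were higher (median 3.39). dyf-2 had 11.5, 463 and 1593 CPM in ciliated libraries, against 2.40, 12.35 and 128 CPM in non-ciliated libraries as lowest, median and highest (4.80 ± 0.43, adjusted p = 8.49e-11, edgeR). Only AWB 51, at the low end, lay inside the non-ciliated range. che-11, daf-10, ifta-1 and ift-139 had log2 differences from 3.02 (che-11) to 3.81 (ift-139). ift-43 differed least (1.91 ± 0.29), with 84.2 CPM in ASG, 94.0 CPM in AWA and 48.7 CPM in AWB, against 35.5 CPM in AVE and 48.2 CPM in PVD.

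All 8 genes of the BBSome list, 7 for subunits and arl-6 for its recruiting GTPase, were higher (median 4.27). bbs-1 had 1.44, 169 and 715 CPM in ciliated libraries, against 0, 3.24 and 30.5 CPM in non-ciliated libraries as lowest, median and highest (5.17 ± 0.43, adjusted p = 2.17e-11, edgeR), and its groups overlapped through AWB 51 and PVD. arl-6 had 4.31, 72.9 and 188 CPM in ciliated libraries, against 0.2504, 1.54 and 8.71 CPM in non-ciliated libraries (5.01 ± 0.42, adjusted p = 2.40e-11, edgeR), and here PVD reached no more than 8.71 CPM. bbs-8, osm-12, bbs-5, bbs-4, bbs-9 and bbs-2 had log2 differences from 3.44 (bbs-2) to 4.53 (bbs-8). With types as units, bbs-1, osm-12, bbs-8 and arl-6 passed (limma adjusted p from 0.0174 to 0.0418). Fewer did so in related lists, with 2 of 14 IFT-B, 1 of 6 IFT-A and 0 of 8 motor genes, beside 1.11% of all genes.

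All 8 motor genes were higher (median 3.11), but the kinesins differed from each other. osm-3, the homodimeric kinesin that builds the distal part of the cilium, had 1274, 835, 593 and 581 CPM in ASG, 126, 63.2, 59.3 and 33.2 CPM in AWA and 62.8, 8.63, 38.9, 46.6 and 40.5 CPM in AWB. The 15 non-ciliated libraries ran from 7.21 to 27.1 CPM, so that AWB 51 alone lay inside their range (2.89 ± 0.28, adjusted p = 4.04e-10, edgeR). klp-11, klp-20 and kap-1 encode the heterotrimeric kinesin-II, and their differences were small: 0.65 ± 0.23, 1.07 ± 0.25 and 1.07 ± 0.24 on the log2 scale. klp-11 lost its call with library totals, equal library weights or types as units, among 9 of its 46 alternatives, and klp-20 and kap-1 lost theirs without AWA. Per kilobase of exon, osm-3 stood at 272 CPM in ASG, where klp-20 stood at 21.2 and klp-11 at 27.2. In AWA the order was the other way, with 23.3 CPM per kilobase for osm-3 and 168 and 38.1 for klp-20 and klp-11. On the same strand, klp-20 (5231 counts over the 37 libraries) overlaps hpo-38 (7779), and osm-3 (7245) overlaps algn-14 (1348). How shared reads were counted is not stated, which limits this order. Both osm-3 and klp-20 differed among the ciliated types (adjusted p = 1.72e-09 and 2.87e-07, edgeR). The dynein heavy chain gene che-3 averaged 701 CPM in ASG, 255 CPM in AWA and 149 CPM in AWB against 14.1 to 95.4 CPM in the non-ciliated types (3.33 ± 0.35, adjusted p = 3.13e-09, edgeR), and its light intermediate and other chain genes xbx-1, dylt-2 and wdr-60 had log2 differences from 3.52 (wdr-60) to 4.02 (dylt-2).

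**Figure D2:**
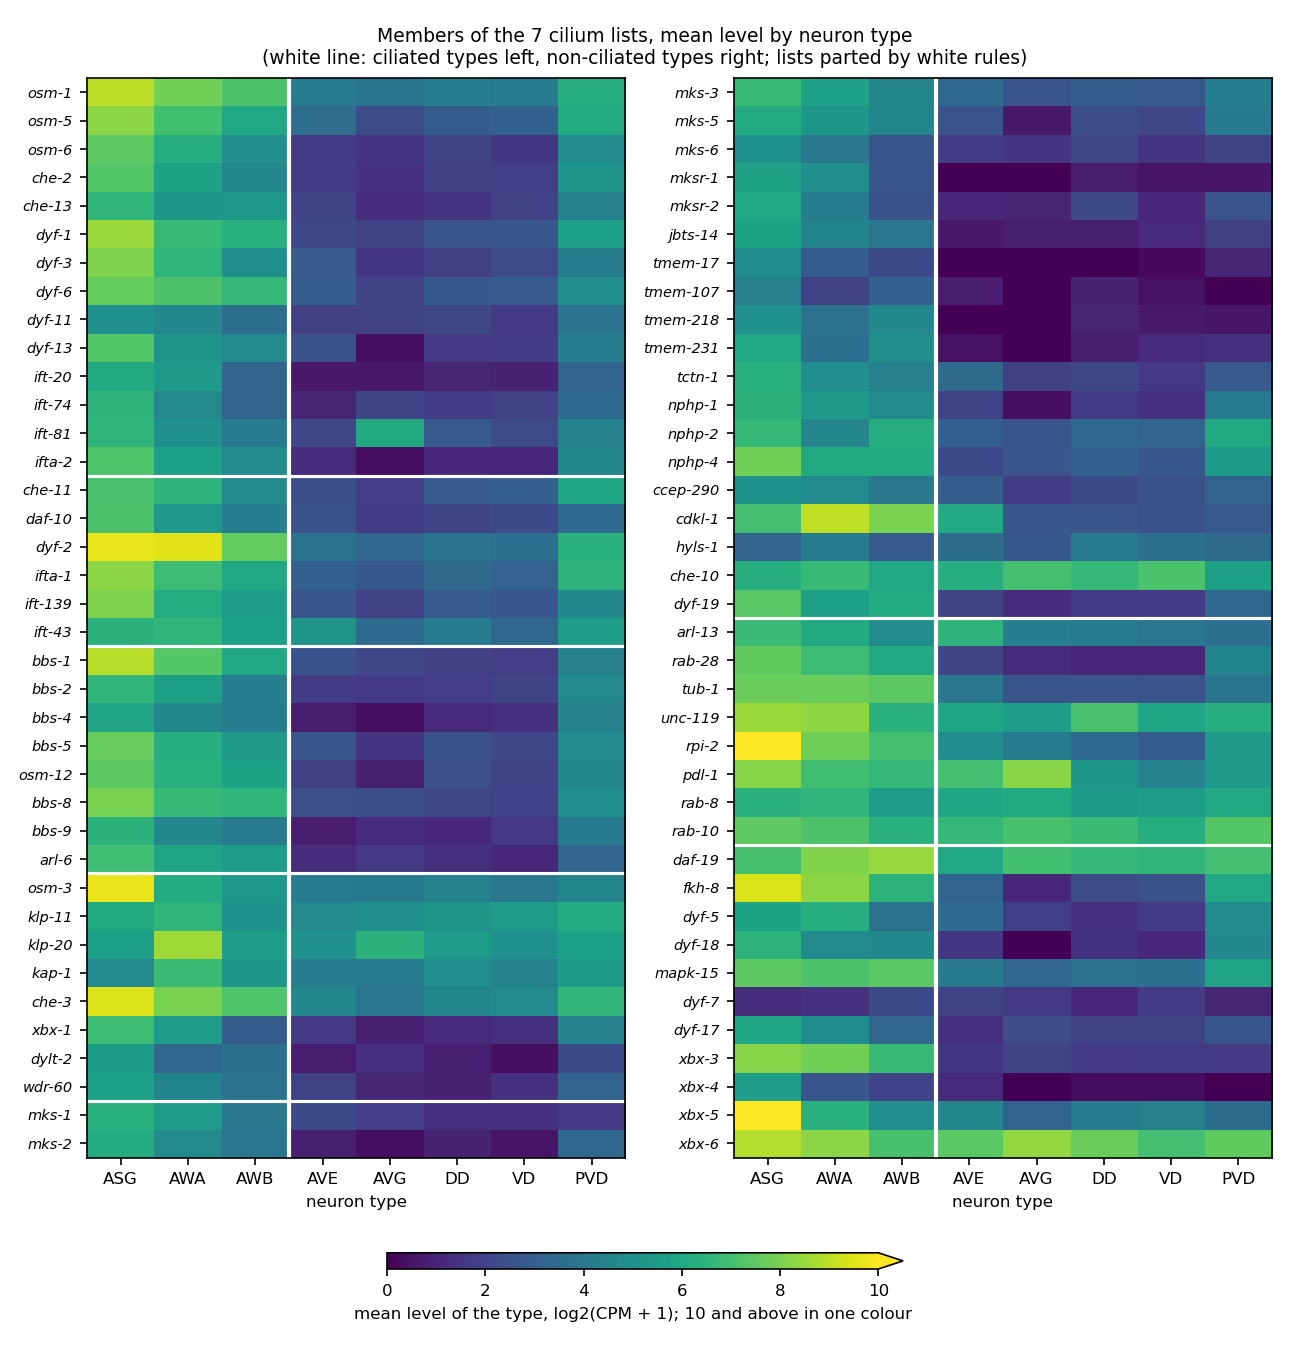
Mean level of each of the 76 cilium list members by neuron type, as log2(CPM + 1), with ciliated types left of the vertical white line; rows run down the left panel and then the right, in the order IFT-B, IFT-A, BBSome, motors, transition zone and basal body, membrane and GTPases, kinases and regulators. The left columns are brighter in most rows, PVD is the brightest non-ciliated column for the IFT and BBSome rows except ift-81, and klp-11, che-10, hyls-1, rab-8, rab-10, dyf-7 and xbx-6 show little difference.

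Of 21 transition zone and basal body genes 19 were higher and 0 lower (median 4.08). jbts-14, of the MKS module of the gate, had 1.44, 20.9 and 78.4 CPM in ciliated libraries, against 0, 1.04 and 4.35 CPM in non-ciliated libraries as lowest, median and highest (4.61 ± 0.45, adjusted p = 4.60e-10, edgeR). All but AWB 51 of its ciliated libraries lay above all non-ciliated libraries. mksr-1, also of the MKS module, averaged 53.4 CPM in ASG, 29.6 CPM in AWA and 5.06 CPM in AWB and had no count in any AVE or AVG library, with at most 0.708 CPM in DD, VD and PVD. tmem-17, tmem-107, tmem-218 and tmem-231 averaged 2.90 to 62.8 CPM in the ciliated and 0 to 1.61 CPM in the non-ciliated types. Where a type had no counts its fitted log2 level depends on the prior count, so CPM is given for these genes. The NPHP module genes nphp-1 and nphp-4 had log2 differences of 4.21 ± 0.35 and 3.58 ± 0.34, and nphp-2, of the inversin compartment, 2.23 ± 0.32.

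cdkl-1, a CDKL kinase gene of the transition zone, differed in its order of types: 126 CPM in ASG, 528 CPM in AWA and 253 CPM in AWB, then 64.6 ± 20.04 CPM in AVE (SD, n = 3) and at most 5.91 CPM in the remaining types (4.89 ± 0.39, adjusted p = 1.27e-11, edgeR). dyf-19, a transition fibre gene, had 1.44, 74.7 and 275 CPM in ciliated libraries, against 0, 2.34 and 15.2 CPM in non-ciliated libraries (4.80 ± 0.40, adjusted p = 2.22e-11, edgeR). The genes that did not pass were hyls-1, a centriole and basal body gene, at -0.14 ± 0.28, and che-10, the rootletin gene, at -0.22 ± 0.21. che-10 averaged 76.7 CPM in ASG, 109 CPM in AWA and 60.97 CPM in AWB against 50.9 to 141 CPM in the non-ciliated types.

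Among 8 genes of the ciliary membrane, small GTPases and lipid-modified cargo, 6 were higher and 0 lower (median 1.55). tub-1, the tubby gene, had 15.8, 203 and 392 CPM in ciliated libraries, against 1.33, 7.84 and 19.6 CPM in non-ciliated libraries as lowest, median and highest (4.65 ± 0.40, adjusted p = 4.16e-11, edgeR). Its ciliated types did not differ beyond their spread (208 CPM in ASG, 209 CPM in AWA and 178 CPM in AWB, adjusted p = 0.934, edgeR), and AWB 51 alone fell within the non-ciliated range. rab-28 (5.31 ± 0.45) and rpi-2, the RP2 gene (4.20 ± 0.38), were higher too. arl-13, the Joubert syndrome GTPase gene, averaged 90.2 CPM in AVE, between 112 CPM in ASG and 65.8 CPM in AWA, and passed at 1.495 ± 0.31. It overlaps rla-1 on the opposite strand, and rla-1 held 53372 counts over the 37 libraries, against 2363 for arl-13. pdl-1, a PDE6D relative, averaged 295 CPM in AVG and 293 CPM in ASG, and its call (1.22 ± 0.32) was lost without ASG, without VD and with libraries weighted equally. rab-8 and rab-10, which also serve traffic outside cilia, had 0.36 ± 0.16 and 0.19 ± 0.16 and did not pass.

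Of 11 kinases and regulators 9 were higher and 0 lower (median 3.30). xbx-3, an X-box gene, was the only member of the 7 lists whose 13 ciliated libraries lay above all 15 non-ciliated libraries, which 0.244% of all tested genes did. It had 5.75, 189 and 477 CPM in ciliated libraries, against 0, 2.34 and 4.90 CPM in non-ciliated libraries as lowest, median and highest (6.31 ± 0.55, adjusted p = 6.21e-11, edgeR). The forkhead gene fkh-8 averaged 687 CPM in ASG, 308 CPM in AWA and 88.2 CPM in AWB against 1.17 to 61.04 CPM in the non-ciliated types (5.24 ± 0.43, adjusted p = 2.22e-11, edgeR). daf-19 itself had 40.3, 191 and 688 CPM in ciliated libraries, against 31.4, 83.4 and 195 CPM in non-ciliated libraries (1.26 ± 0.29, adjusted p = 9.82e-04, edgeR), and its groups overlapped over most of their range. Its order within the ciliated types, 133 CPM in ASG, 275 CPM in AWA and 351 CPM in AWB, was the reverse of that of most IFT genes, but the ciliated types did not differ by the test (adjusted p = 0.0849, edgeR). daf-19 has isoforms with and without a role in cilia, and the counts are per gene. The kinase genes dyf-5, dyf-18 and mapk-15, which tune ciliary length and IFT, had log2 differences of 2.85, 4.73 and 3.30. dyf-7, a gene of dendrite anchoring in the embryo, was at or below 3.77 CPM in every type and did not pass, and neither did xbx-6 (0.45 ± 0.23).

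Tubulin and tubulin-modifying genes split, with 6 of 23 higher, 7 lower and a median of -0.10, beside 15.7% and 12.39% of all genes. tbb-4, a beta-tubulin of cilia, averaged 467 CPM in ASG, 149.9 CPM in AWA and 211 CPM in AWB against 7.47 to 92.0 CPM in the non-ciliated types (3.96 ± 0.41, adjusted p = 1.57e-09, edgeR). The ciliary alpha-tubulin gene tba-5 averaged 693 CPM in ASG, 154 CPM in AWA and 9.34 CPM in AWB, against 3.08 to 7.94 CPM in the non-ciliated types (4.31 ± 0.32, adjusted p = 1.83e-12, edgeR; among ciliated types adjusted p = 1.16e-10). tba-9 was highest in AWA at 295 CPM and in PVD at 179.8 CPM. The polyglutamylase gene ttll-11 (2.84 ± 0.35) and the deglutamylase gene ccpp-1 (0.77 ± 0.16) were higher. mec-7 and mec-12, tubulins of touch receptor neurons, and the tubulin acetyltransferase gene mec-17 were lower at -2.42 ± 0.26, -1.26 ± 0.32 and -2.34 ± 0.35; in PVD mec-17 averaged 898 CPM.

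The ciliated types differed among themselves in cilium genes. Of the 76 members 57, or 75.0%, differed among ASG, AWA and AWB, against 32.9% of all genes (edgeR). ASG had the highest mean of the 3 in 64 of the 76 and AWB the lowest in 63, whereas over all 15181 genes ASG was highest in 4886 and AWB lowest in 5506. Against the mean of the non-ciliated types, 69 of the 76 were higher in ASG, 69 in AWA and 59 in AWB, beside 16.9%, 14.9% and 11.7% of all genes. IFT-A, IFT-B and BBSome genes together took 0.474% ± 0.101 of counts in ASG (SD, n = 4), 0.261% ± 0.108 in AWA (SD, n = 4) and 0.131% ± 0.0781 in AWB (SD, n = 5). Set against the share of the pan-neuronal list they took 34.5 ± 11.6 counts per 100 pan-neuronal counts in ASG, 30.3 ± 2.09 in AWA and 12.6 ± 1.82 in AWB (SD). AWA 20 and AWB 51 stood at 29 and 12.6 on this ratio, near the other libraries of their types. In PVD it was 7.08 and 8.92, and in AVE, AVG, DD and VD it averaged 2.68, 1.48, 1.25 and 1.78. Transition zone genes gave 9.06 ± 2.62, 12.8 ± 1.003 and 7.32 ± 1.46 in ASG, AWA and AWB, against 1.51 to 3.52 in the 5 non-ciliated types.

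**Figure D3:**
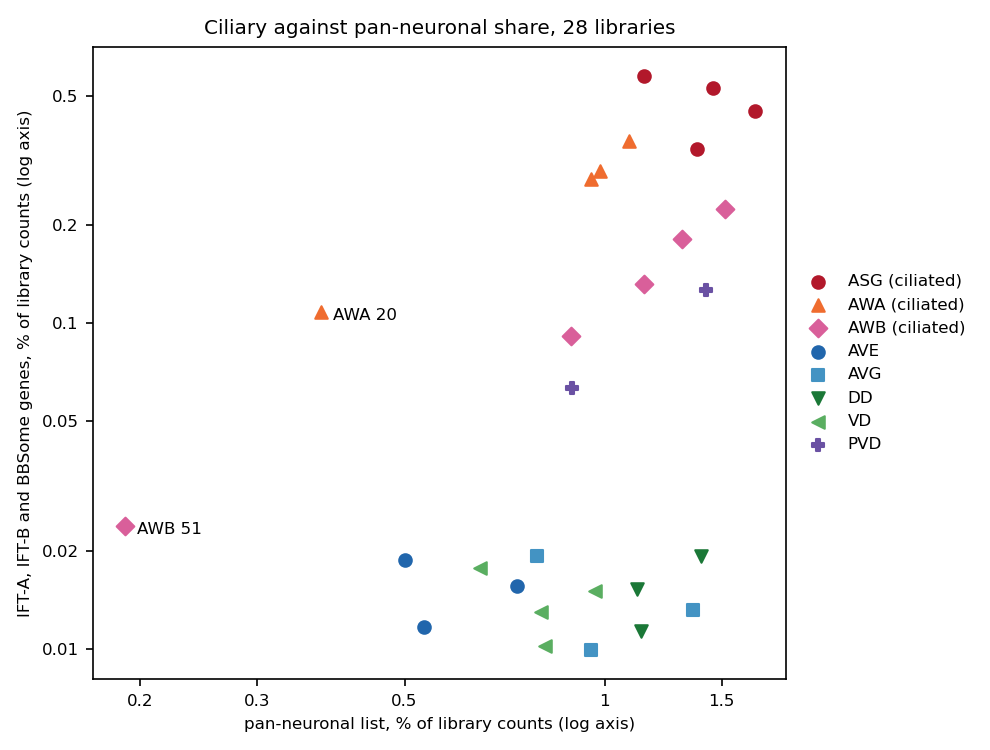
Share of counts taken by IFT-A, IFT-B and BBSome genes against the share taken by the pan-neuronal list, both in percent on log axes, 1 point for each of the 28 libraries. The ASG, AWA and AWB points lie on higher lines than those of AVE, AVG, DD and VD, PVD lies between, and AWA 20 and AWB 51 sit at low pan-neuronal shares of 0.374% and 0.190%.

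Many IFT and BBSome genes were higher in PVD than in the other non-ciliated types. In a comparison added after the data were seen, PVD minus the mean of AVE, AVG, DD and VD, 31 of the 76 cilium genes were higher and 0 lower, beside 4.44% and 1.23% of all genes (edgeR; 1 lower at an unadjusted p under 0.05). By list they were 10 of 14 IFT-B, 3 of 6 IFT-A and 6 of 8 BBSome genes, 5 of 21 transition zone genes and 4 of 11 kinases and regulators, with median log2 differences of 2.91, 2.46, 2.92, 1.48 and 0.44. osm-6 stood at 7.29 and 47.9 CPM in PVD 62 and 63, and che-11 at 53.1 and 67.5 CPM against a highest value of 9.71 CPM among AVE, AVG, DD and VD. Without PVD 63, 2 IFT-B, 2 IFT-A and 1 BBSome gene passed, with list medians of 1.74, 1.60 and 1.95. Without PVD 62 these counts were 11, 3 and 7, with medians of 3.79, 3.20 and 3.67. Either way PVD is then a single library, assumed to vary like the libraries of the other groups. Genes of the other lists, named after their values were seen, divided. nphp-2 stood at 46.8 and 87.1 CPM and nphp-4 at 22.9 and 63.1 CPM in PVD, against at most 12.1 and 10.7 CPM in AVE, AVG, DD and VD. fkh-8 stood at 43.7 and 78.4 CPM and mapk-15 at 39.6 and 73.998 CPM in PVD, against at most 10.04 and 18.7 CPM. These 4 passed the test, while others lay in PVD within the range of AVE, AVG, DD and VD, with mks-1 at 2.08 and 2.18 CPM, xbx-3 at 2.08 and 2.18 CPM and tax-4 at 1.04 and 0 CPM. The dopamine genes dat-1 and cat-2, markers of the ciliated PDE neuron that lies beside PVD, averaged 4.78 and 0.521 CPM in PVD, against 3.92 to 11.1 and 0.880 to 4.85 CPM in the other non-ciliated types. They belong to a list for other ciliated neurons, of which 1 of 23 genes passed as higher in PVD and 0 as lower (edgeR). ets-5 of that list, named after its values were seen, went the other way. It stood at 10.4 and 15.2 CPM in PVD 62 and 63, against at most 0.713 CPM in AVE, AVG, DD and VD. The part of RNA from PDE or other ciliated cells in the PVD libraries was not tested. Set directly against PVD, the ciliated types had 22 of the 76 genes higher and 0 lower, beside 4.06% and 5.60% of all genes, among them 9 of 21 transition zone genes and 1 of 14 IFT-B genes (edgeR; 0 lower at an unadjusted p under 0.05).

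With AWA 20, AWB 51 and PVD left out, also after the data were seen, 42 of the 76 cilium genes had every ciliated library above every non-ciliated library. Of all genes 1.79% did so, against 0.244% with all libraries, where 1 of the 76 did. The libraries left out are those through which many cilium genes had been seen to overlap. The rise is thus built into the choice and is no separate support. The 42 were 10 of 14 IFT-B, 5 of 6 IFT-A, 7 of 8 BBSome, 3 of 8 motor, 10 of 21 transition zone, 3 of 8 membrane and 4 of 11 kinase and regulator genes.

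Several sensory signalling genes were also higher, and here the ciliated types divided the genes between them. Of 19 sensory G protein genes 17 could be tested, and 13 were higher and 1 lower (median 2.97). A gene could be tested through a single type where it was high, so no share is read from these counts. gpc-1, a G protein gamma subunit gene, and gpa-3, an alpha subunit gene, were among the 37 genes that did not overlap between classes. gpc-1 had 15.8, 219 and 1579 CPM in ciliated libraries, against 0, 5.76 and 10.1 CPM in non-ciliated libraries as lowest, median and highest (5.77 ± 0.46, adjusted p = 1.25e-11, edgeR), and gpa-3 had 18.7, 106 and 545 CPM in ciliated libraries, against 0, 6.51 and 9.27 CPM in non-ciliated libraries (4.96 ± 0.46, adjusted p = 2.20e-10, edgeR). odr-3, the alpha subunit gene of olfactory signalling, averaged 10.8 CPM in ASG, 684 CPM in AWA and 715 CPM in AWB, while gpa-1 averaged 199 CPM in ASG and gpa-4, gpa-5 and gpa-6 averaged 375, 421 and 121.6 CPM in AWA, against at most 7.23 CPM for any of these 4 in the other ciliated types. gpa-16 was lower (-0.64 ± 0.20) and averaged 126 CPM in PVD, and its call was lost without PVD. The calls of gpa-4, gpa-5 and gpa-6 were lost without AWA and that of gpa-1 without ASG.

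Genes of cyclic GMP signalling were higher in the ciliated types, and their highest ciliated means were in ASG or AWB. Of 10 channel, kinase and phosphodiesterase genes 8 were higher and 0 lower (median 3.71; edgeR, with 1 lower at an unadjusted p under 0.05 and 0 by DESeq2). ASG had the highest ciliated mean in 4 of the 10 and AWB in 6, and AWA had the lowest in 7. In 5 of the 10 every ciliated type, AWA included, averaged above every non-ciliated type, as did 6.07% of all genes. The sensory channel subunit gene tax-4 had 4.31, 106.9 and 285 CPM in ciliated libraries, against 0, 1.08 and 3.52 CPM in non-ciliated libraries as lowest, median and highest (6.24 ± 0.50, adjusted p = 1.18e-11, edgeR), with no overlap, and averaged 212 CPM in ASG, 40.2 CPM in AWA and 104.6 CPM in AWB. Its partner tax-2 averaged 129.5 CPM in ASG, 2.17 CPM in AWA and 194 CPM in AWB, against 0 to 1.97 CPM in the non-ciliated types, and cng-2 averaged 604 CPM in ASG, 3.14 CPM in AWA and 112 CPM in AWB. che-6 averaged 106 CPM in AWB and below 1 CPM in ASG and AWA. The receptor guanylyl cyclase genes odr-1 and daf-11 averaged 428 and 497 CPM in AWB, with odr-1 at 84.6 CPM in ASG, and gcy-11 averaged 16160.3 CPM in ASG. The TRPV channel genes osm-9, ocr-1 and ocr-2, the channels of the alternative pathway, stood in AWA at 1226, 846 and 119.3 CPM, against at most 17.7, 3.84 and 4.98 CPM in ASG and AWB. osm-9 and ocr-2 averaged 255 and 43.4 CPM in PVD as well. Over the classes osm-9 (1.36 ± 0.33) and ocr-1 (2.88 ± 0.54) passed and ocr-2 did not (0.74 ± 0.48, adjusted p = 0.276, edgeR). Without AWA the differences were -0.74 for osm-9 and -1.02 for ocr-2, and ocr-1 lost its call. The 7 genes tax-2, cng-2, che-6, odr-1, daf-11, osm-9 and ocr-1 each differed among the ciliated types (largest adjusted p = 4.65e-08, edgeR).

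Genes for moving and tuning receptors gave 3 of 7 higher and 0 lower (edgeR; also 0 lower at an unadjusted p under 0.05 and by DESeq2). odr-4 and odr-8 are needed to bring chemoreceptors into the cilium. odr-4 had 53.2, 131 and 269 CPM in ciliated libraries, against 26.3, 42.3 and 66.96 CPM in non-ciliated libraries as lowest, median and highest (1.82 ± 0.20, adjusted p = 9.50e-09, edgeR). odr-8 had 64.2, 220.3 and 581 CPM in ciliated libraries, against 39.9, 63.7 and 118 CPM in non-ciliated libraries (1.91 ± 0.21, adjusted p = 6.70e-09, edgeR). Both genes were detected in every non-ciliated library, and of the ciliated libraries AWA 20 and AWB 51 lay within the non-ciliated range for both. rgs-3, a regulator of G protein signalling, passed at 5.61 ± 0.51 with no overlap. Of 1308 chemoreceptor genes 235 could be tested, and a gene could reach that number through a single type, so no share is read from it. The same holds for the 27 of 39 insulin-like peptide genes that could be tested. Several stood in AWA: ins-26, ins-30, ins-28, ins-24 and ins-3 averaged 1793, 1627, 818, 701 and 630.1 CPM in AWA and at most 39.6 CPM in ASG and AWB, and the calls of ins-3, ins-28 and ins-30 were lost without AWA. Of 15 neuropeptide processing genes 6 were higher and 4 lower: the enzyme genes egl-3, egl-21, pgal-1 and pghm-1 and the chaperone gene sbt-1 had log2 differences from 1.75 (sbt-1) to 2.31 (pghm-1), and the convertase gene kpc-1 had -1.42 ± 0.15.

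**Figure D4:**
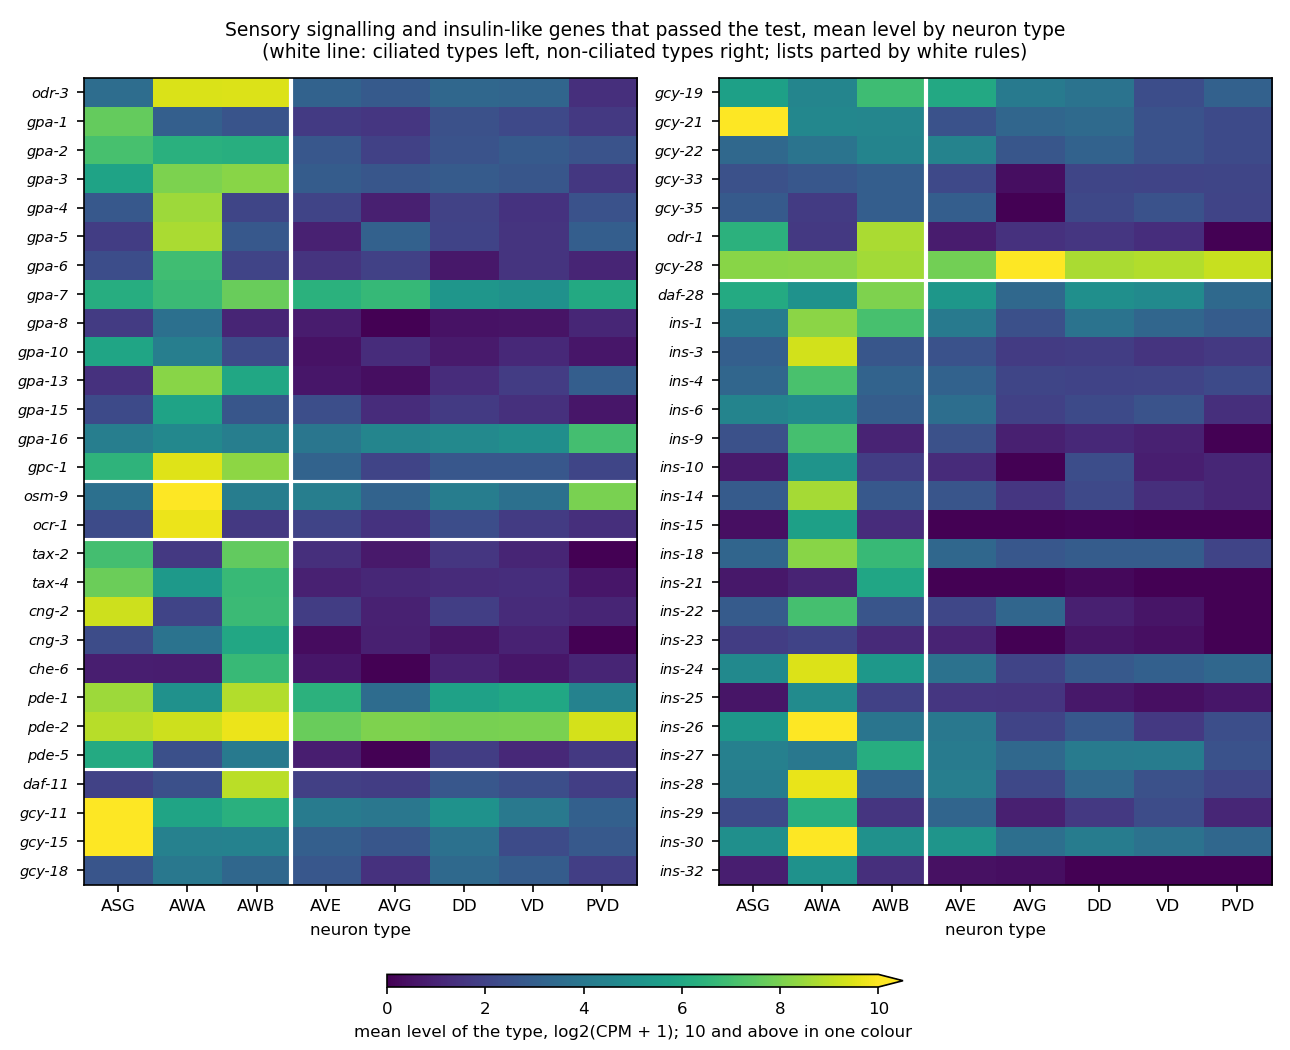
Mean level by neuron type, as log2(CPM + 1), of the members of the G protein, TRPV, cyclic GMP, guanylyl cyclase and insulin-like lists that passed the test in either direction, with ciliated types left of the vertical white line. AWA is brightest for gpa-4 to gpa-6, osm-9, ocr-1 and most ins genes, ASG for gcy-11, gcy-15 and gcy-21, and AWB for che-6 and daf-11.

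Of the 37 genes whose ciliated libraries all lay above the non-ciliated ones, the 15 protein-coding genes with the widest gap between type means were rdl-1, Y48G8AR.2, F10E9.1, xbx-3, ceph-41, T06G6.3, nex-4, droe-4, tax-4, rgs-3, T13C2.7, T06G6.4, F27C1.11, kqt-3 and gpc-1. rdl-1 had 38.8, 394 and 778 CPM in ciliated libraries, against 0, 2.65 and 5.45 CPM in non-ciliated libraries as lowest, median and highest (7.34 ± 0.48, adjusted p = 1.73e-13, edgeR). The lowest ciliated library was AWB 51. ceph-41, the CEP41 gene, had 4.31, 74.2 and 381 CPM in ciliated libraries, against 0, 0.778 and 2.18 CPM in non-ciliated libraries (6.78 ± 0.57, adjusted p = 2.61e-11, edgeR). droe-4 averaged 942 CPM in ASG, 4366 CPM in AWA and 2555 CPM in AWB against 15.8 to 55.4 CPM in the non-ciliated types. The annexin gene nex-4 averaged 1267 CPM in ASG, 226 CPM in AWA and 384 CPM in AWB, and the KCNQ-type potassium channel gene kqt-3 averaged 135 CPM in ASG, 160.1 CPM in AWA and 168 CPM in AWB with 12.3 CPM in PVD. T06G6.3 and T06G6.4 are neighbours on the same strand. All 15 also passed with types as units (limma adjusted p from 0.00166 to 0.00596). They were picked by the gap between these same type means, so that is no separate support. A pseudogene on chromosome I, WBGene00014760, was the one gene of another class that met the same conditions.

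Many genes of the synapse and of axon guidance were lower in the ciliated types by the spread between libraries, but few with types as units. Of 26 synaptic vesicle and active zone genes 18 were lower and 0 higher (median -0.88), beside 12.39% and 15.7% of all genes. In this list, as in the leak channel, GABA and Hox lists, 0 genes were higher at an unadjusted p under 0.05 or by DESeq2. With types as units (limma), 1 of the 26 passed as lower, beside 0.178% of all genes, and 12 were lower at an unadjusted p under 0.05. None of the lower calls held in the guidance, leak channel, GABA and Hox lists, where 8 of 24, 6 of 13, 2 of 5 and 2 of 6 were lower at an unadjusted p under 0.05. sng-1, synaptogyrin, had 5.67, 16.1 and 45.4 CPM in ciliated libraries, against 32.3, 115.2 and 334 CPM in non-ciliated libraries as lowest, median and highest (-2.70 ± 0.28, adjusted p = 1.37e-09, edgeR). The only non-ciliated library within the ciliated range was PVD 62. unc-10, the RIM gene, averaged 49.1 CPM in ASG, 149 CPM in AWA and 121 CPM in AWB, against 2653 and 1313 CPM in DD and VD (-2.56 ± 0.24). Its levels were 140.85, 281.69 and 715.78 CPM in AVG and 379.99 and 622.45 CPM in PVD. AVE went the other way, with 71.277, 86.639 and 111.3 CPM, below the means of AWA and AWB. snt-1, synaptotagmin, passed at -1.42 ± 0.27, but its AVE libraries lay within the range of AWB. Of the pan-neuronal list, which shares members with this one, 3 of 20 were higher and 11 lower. Their summed share of counts was 1.09% over the ciliated and 0.961% over the non-ciliated types. Of 17 axonal cytoskeleton and transport genes 6 were lower and 11 did not pass (edgeR; 0 higher at an unadjusted p under 0.05 or by DESeq2), and with types as units none passed (limma; 5 lower at an unadjusted p under 0.05). The spectrin genes unc-70 (-1.19 ± 0.21) and spc-1 (-1.19 ± 0.20) were among the 6. Among axon guidance genes 16 of 24 were lower and 3 higher, the ephrin gene vab-2 being higher without overlap (13.8, 110.5 and 278 CPM in ciliated libraries, against 0, 6.76 and 13.3 CPM in non-ciliated libraries as lowest, median and highest). unc-5, the netrin receptor gene, passed at -2.74 ± 0.24, with 464, 308 and 347 CPM in DD, VD and PVD.

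**Figure D5:**
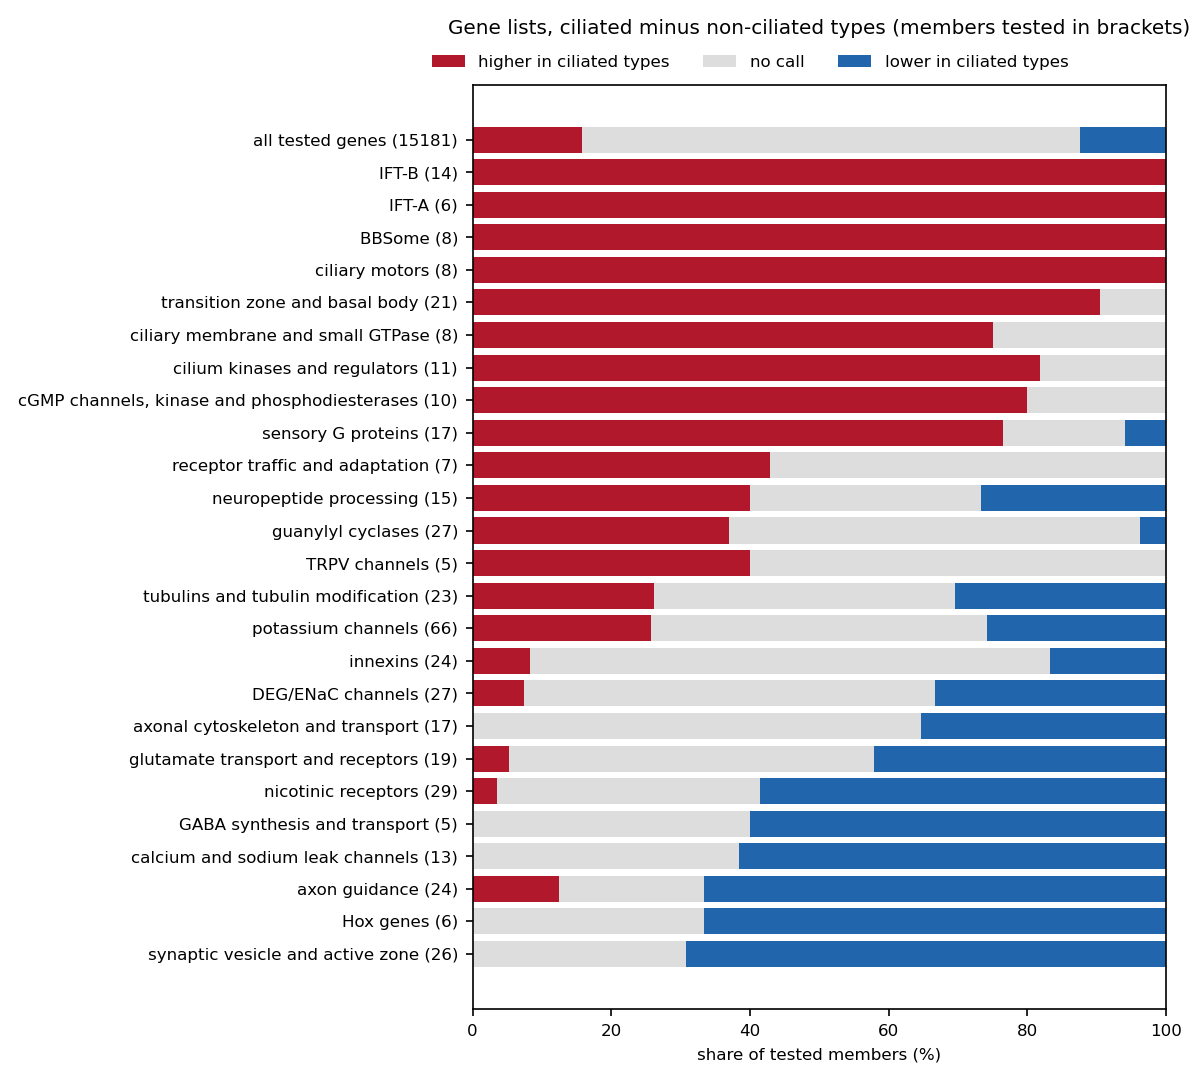
Share of the tested members of each gene list called higher in ciliated types (red), not called (grey) or lower (blue), in percent, with the number tested in brackets and all tested genes as the top bar. The cilium lists are red over 75.0% or more of their length, against 15.7% for all genes, and the synaptic, Hox, guidance, leak channel, GABA and nicotinic lists are mostly blue.

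Of 29 nicotinic receptor genes 17 were lower and 1 higher (median -1.57), beside 12.39% and 15.7% of all genes. With types as units 1 passed as lower (limma). acr-12 had 2.12, 6.65 and 20.9 CPM in ciliated libraries, against 21.9, 89.3 and 188 CPM in non-ciliated libraries as lowest, median and highest (-3.60 ± 0.31, adjusted p = 4.22e-11, edgeR) with no overlap, and 0.119% of all genes showed no overlap in this direction. deg-3 and des-2 were lower at -3.81 ± 0.28 and -4.27 ± 0.30, with 2112 and 3795 CPM in PVD. The glutamate list had 8 of 19 lower and 1 higher, with glr-1 at 191 and 491 CPM in AVE and AVG and at most 14.6 CPM in the ciliated types. Calcium and sodium leak channel genes had 8 of 13 lower and 0 higher, among them unc-77, nca-2, unc-79 and unc-80 of the NALCN channel complex (-2.84, -2.38, -2.19 and -1.99). Potassium channel genes split 17 higher and 17 lower of 66, with kqt-3 and kvs-2 higher (4.75 and 4.25) and the TWK family genes twk-2, twk-43 and twk-30 lower (-3.18, -2.76 and -2.66). Innexins had 2 higher and 4 lower of 24, near the 15.7% and 12.39% of all genes, so the counts say nothing particular of innexins. Among them che-7 stood at 3.30 ± 0.31 and unc-9 at -2.22 ± 0.27.

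In the GABA list 3 of 5 genes were lower and 0 higher, beside 12.39% and 15.7% of all genes. unc-25 stood at 13.1 to 102.8 CPM in ciliated and 56.6 to 5416 CPM in non-ciliated libraries. Of 6 Hox genes 4 were lower and 0 higher, with lin-39 averaging 450.4, 144 and 643 CPM in DD, VD and PVD and at most 12.3 CPM in the ciliated types. Neuron identity factor genes gave 6 higher and 11 lower of 29; the Otx genes ceh-36 and ceh-37 were higher at 3.28 ± 0.82 and 4.74 ± 0.39. The 10 protein-coding genes with the widest gap in this direction were F13E9.11, arrd-22, acr-12, Y105E8A.1, Y69A2AR.31, twk-2, txt-13, C09G1.4, F32B5.7 and T02E9.5. F13E9.11 averaged 8.35 CPM in ASG, 25.5 CPM in AWA and 23.1 CPM in AWB against 121 to 248 CPM in the non-ciliated types (-3.19 ± 0.35, adjusted p = 5.59e-09, edgeR), and arrd-22, an arrestin domain gene, averaged 13.5 CPM in ASG, 7.97 CPM in AWA and 14.6 CPM in AWB against 62.1 to 246 CPM (-3.41 ± 0.35, adjusted p = 1.27e-09, edgeR). With types as units 8 of the 10 passed, and Y69A2AR.31 and txt-13 did not (limma adjusted p = 0.174 and 0.0512). The 10 were likewise picked by the gap between the type means, so the 8 are no separate support.

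No intestine, glia, pharyngeal muscle, sperm or coelomocyte list member passed in either direction, of 17, 11, 6, 9 and 4 tested (edgeR; DESeq2 called 0 as well, and at an unadjusted p under 0.05 there were 2 pharyngeal muscle genes lower, 1 glia gene higher and 1 lower). Body-wall muscle had 1 of 18 lower, hypodermis 6 of 17 and germline 5 of 18, with 0 higher in each (edgeR; 0 at an unadjusted p under 0.05 and by DESeq2). Hypodermis genes took 0.179% ± 0.0601 of counts over the ciliated types (SD, n = 3) and 0.325% ± 0.119 over the non-ciliated types (SD, n = 5), and body-wall muscle genes took 1.41% ± 0.241 over the ciliated types and 2.24% ± 0.509 over the non-ciliated types. In an exact two-sided permutation test of the 8 type means, which can give no p below 0.0357, none of the shares passed after adjustment over 17 lists (smallest adjusted p = 0.0759). The list for other ciliated neurons had 7 of 23 higher and 1 lower, led by daf-7, which averaged 3415 ± 1453 CPM in ASG (SD, n = 4), and ets-5 at 118 CPM in ASG. daf-7 also stood at 362, 255, 243 and 44.5 CPM in AWA and 36.3 to 94.8 CPM in AWB, against 13.7 to 52.7 CPM in non-ciliated libraries. In the same list che-1, str-2, str-3 and sra-6 were taken as markers of ASE, AWC, ASI and ASH. These 4 genes were at or below 0.887 CPM on average in each ciliated type. These 4 are only part of the list. Its genes together took 0.286% of counts in ASG, 0.0295% in AWA and 0.0271% in AWB, against 0.0064% to 0.0127% in the non-ciliated types. The part of RNA from other cells in the differences was not tested.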

How the data were processed

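Total RNA of sorted neurons was sequenced in 37 libraries. The deposited values are raw counts per gene that the authors made; STAR, SAMtools and featureCounts are named per the submitters' processing notes, without versions, settings, strand or genome build. The 30631 genes of the table held 251586 to 5415925 counts per library (median 1638118). Library numbers in the labels gave each column its sample. No pair of replicates agreed within sampling noise (chi-square per degree of freedom 5.56 to 85.9 over 38 pairs), so none were merged.

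Counts were fitted in edgeR 4.0.16 (R 4.3.3) with TMM factors, the filterByExpr filter by group, 1 coefficient for each of the 10 groups over all 37 libraries and the quasi-likelihood F-test. The common dispersion was 0.226. Each type had equal weight in the contrast, and p-values were adjusted by Benjamini-Hochberg over all 15181 genes tested. A fitted log2 level of a type with no counts depends on the prior count. Differences among ASG, AWA and AWB were tested in the same fit. limma 3.58.1 on type means and DESeq2 1.42.0 were alternatives, as were other scalings, filters, thinning and libraries or types left out. CPM are counts divided by the scaled library total. Shares of counts were compared by exact permutation of the 8 types (56 assignments). On simulated counts of 13787 genes, the fit recovered 48% of 100 genes changed 2-fold and 98% of 100 genes changed 4-fold, and called 8 unchanged genes. How many genes the fit would recover or wrongly call where the neuron types of a class differ was not tested.

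The classes and gene lists were chosen with earlier results of these data known. Genes outside the lists were named by rule: a call, no overlap between the classes, at least 20 CPM in the higher class, and then the 15 higher and 10 lower protein-coding genes with the widest gap between type means. The comparisons with PVD, and separations without AWA 20, AWB 51 or PVD, were added after the data were seen. The pan-neuronal and all-cell libraries entered the fit but no comparison.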

Additional observations from a re-analysis of the deposited data

Results flagged for a closer look

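In 33 of 802 comparisons of the libraries of 1 type, each of 4 or 5 libraries, 1 library lay farther from the rest than Dixon's test allows at the 95% level. Chance alone flags about 1 in 20. Of the shares of counts, in percent, these were body-wall muscle at 3.68 in AWB 51 (others 0.909 to 1.66), pharyngeal muscle at 0.429 in AWB 51 (others 0.0180 to 0.0648), intestine at 1.67 in AWA 20 (others 0.00876 to 0.269) and sperm at 0.0490 in ASG 16 (others 0.000918 to 0.00459).

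Of the genes named, in CPM, the library that stood apart was the highest of a ciliated type for gpc-1 at 212 in ASG 13 (others 41.8 to 64.1), F13E9.11 at 12.8 in ASG 14 (others 6.64 to 7.08), arrd-22 at 13.6 in AWA 19 (others 5.54 to 6.70), arrd-22 at 29.5 in AWB 50 (others 10.6 to 11.5), Y69A2AR.31 at 46.3 in ASG 15 (others 15.6 to 18.4) and C09G1.4 at 21.6 in ASG 14 (others 11.33 to 12.1). Others of this kind were che-11 at 267 in ASG 15 (others 82.9 to 106), che-3 at 1463 in ASG 15 (others 375 to 491), ops-1 at 0.353 in AWA 20 (others at 0), odr-7 at 2.12 in ASG 16 (others at 0), unc-55 at 3.95 in AWA 19 (others 0.554 to 1.06) and dma-1 at 23.9 in AWB 53 (others 10.7 to 14.1). Others of this kind were cat-2 at 0.664 in ASG 13 (others at 0), kpc-1 at 137 in ASG 14 (others 93.6 to 99.1), kpc-1 at 93.5 in AWB 50 (others 67.6 to 70.6) and ocr-2 at 8.63 in AWB 51 (others 3.53 to 4.78). It was the lowest of a ciliated type for F27C1.11 at 57.2 in AWA 20 (others 154 to 171), osm-1 at 122.1 in AWA 20 (others 263 to 282), bbs-9 at 14.1 in AWA 20 (others 26.6 to 27.7) and nphp-4 at 37.8 in AWA 20 (others 74.6 to 75.1). In VD, the non-ciliated type large enough to be tested, it was the highest for F10E9.1 at 4.44 in VD 79 (others 1.48 to 1.99), kqt-3 at 10.1 in VD 81 (others 5.59 to 5.76), ops-1 at 0.164 in VD 79 (others at 0), str-1 at 0.329 in VD 79 (others at 0) and ins-28 at 8.55 in VD 79 (others 2.87 to 3.54). It was the lowest in VD for T13C2.7 at 0.443 in VD 78 (others 1.48 to 1.64), C09G1.4 at 91.9 in VD 79 (others 178 to 185), ins-26 at 0 in VD 78 (others 2.87 to 2.96) and unc-9 at 138 in VD 79 (others 204 to 215).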

How the results depend on the processing

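The cilium lists kept their direction under every alternative run, with list medians above 0, and 66 of the 70 calls were kept except with types as units. Over all genes, 2389 were higher and 1881 lower. These counts became 1383 and 1028 with libraries thinned to 251586 counts and 169 and 27 with neuron types as units. The count of lower genes was 3066 without AWA 20 and AWB 51, 961 without ASG and 1174 without VD. It ran from 1115 (without PVD 62) to 2459 (without AWA 20) over single libraries left out, among them 1253 and 1238 without ASG 13 and ASG 14. The count of higher genes ran from 2155 to 2726. Genes differing among ASG, AWA and AWB numbered 4997, 2612 after thinning, and 4436 to 5822 with single libraries left out. Genes without overlap, 37 higher and 18 lower, became 189 higher without AWA 20 and AWB 51, 66 and 28 without PVD, and 271 and 39 without all of these. The cause of these shifts was not tested.

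Single genes turned direction as follows, on the log2 scale. hyls-1 was 0.07 without ASG and 0.20 without AWB, and -0.20 to 0.03 with single libraries left out. che-10 was 0.09 without AWB and 0.02 without AVG, and -0.34 to 0.04 with single libraries left out. dyf-7 was -0.20 without AWA 20 and AWB 51 together, -0.10 without AWB, -0.06 without DD and -0.02 without PVD, and -0.28 to 1.13 with single libraries left out. lim-4 was 0.00 without AWB. lin-11 was 0.05 with DESeq2 size factors, 0.05 without mitochondrial and rRNA genes, 0.04 in the 28 libraries of the 8 types alone, 0.05 with the DESeq2 test, 0.93 without AWA, 0.76 without AWB, 0.65 without AVE and 0.92 without AVG, and -0.17 to 0.18 with single libraries left out. R31.2 was -0.26 without ASG. ags-3 was 0.00 with DESeq2 size factors, 0.03 without mitochondrial and rRNA genes, 0.02 in the 28 libraries of the 8 types alone, 0.11 without AWA 20 and AWB 51 together, 0.00 with the DESeq2 test, 0.65 without AWB and 1.35 without AVG, and -0.29 to 0.12 with single libraries left out. cat-2 was 0.26 without ASG. ocr-2 was -1.02 without AWA. osm-9 was -0.74 without AWA.

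With the 28 libraries as units the differences in share of counts, in percentage points, passed the permutation test and were 0.108 for IFT-B, 0.0815 for IFT-A, 0.0614 for BBSome, 0.0709 for motor, 0.0795 for transition zone, 0.0821 for membrane and 0.160 for kinase and regulator genes. They were 0.0977 for the list of other ciliated neurons, -0.829 for body-wall muscle, -0.156 for hypodermis and -0.0697 for germline. Libraries as units count those of the same neuron type as independent samples of a class, so these passes do not speak for the classes. With neuron types as units none of the shares passed after adjustment (exact permutation test, smallest adjusted p = 0.0759). Differences in share that turned direction were -0.0309 for pan-neuronal genes and 0.00029 for glia without ASG, 0.0108 and 0.00283 for pharyngeal muscle without ASG and without DD, and 0.000747 for coelomocytes without VD. For intestine they were -0.112 without AWA 20 and AWB 51 and -0.0594 without AWA, and -0.0940 to 0.0903 with single libraries left out. For sperm they were -0.00172 without AWA 20 and AWB 51, -0.000496 without ASG, -0.000604 without AWA, -0.0012 without AVE, -0.000022 without AVG, -0.000313 with libraries as units and -0.00326 to 0.00226 with single libraries left out. No paired analysis was possible because the neuron types share no replicate numbers. Libraries with low totals, among them some of AWB, AVG and PVD, limit what can be seen of low genes.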
